A study of Mus musculus with 42 samples.

Results

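Kidneys of mice fed ascorbyl-palmitate were compared with kidneys of untreated littermates across every gene that was expressed well enough to test. The comparison takes in 10 of the 42 libraries of the series, picked by their labelled organ and diet: 4 from ascorbyl-palmitate kidneys and 6 from control kidneys. The assay was CEL-seq, in which RNA with a poly(A) tail is barcoded by sample and read from its 3′ end, and the values are gene counts. The ascorbyl-palmitate group was made up of male UM-HET3 mice given Purina 5LG6 diet with 6.3 ppm of the compound for 1 month from the age of 3 months. Control mice were male UM-HET3 littermates on the same diet without a compound, and all tissues were taken at 4 months. UM-HET3 is a genetically heterogeneous stock bred from several inbred strains, so each animal has its own genotype. The labels call the samples biological replicates. A second, direct comparison set the ascorbyl-palmitate kidneys against the other 20 compound-fed kidneys, with 4 animals for each compound: KU0063794 (10 ppm), GDC-0941 (50 ppm), AZD8055 (20 ppm), AS-703026 (30 ppm) and enzastaurin (75 ppm).

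Ascorbyl-palmitate is vitamin C joined to palmitic acid through an ester bond, which makes the vitamin soluble in fat, and it is used as an antioxidant in foods. Vitamin C is an electron donor for iron- and copper-dependent enzymes, among them the hydroxylases that mature collagen, the enzymes that mark hypoxia-inducible factors for destruction and the TET and Jumonji enzymes that demethylate DNA and histones. Mice make their own vitamin C, chiefly in liver through the enzyme encoded by Gulo, and the proximal tubule of the kidney takes it back from the filtrate through the transporter encoded by Slc23a1.

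The libraries differed in depth and in background. Total counts were 2319356, 2961707, 2416030 and 3569053 in ascorbyl-palmitate kidneys, against 863605, 1787638, 1187020, 1334020, 1644042 and 2559118 in control kidneys (exact two-sided permutation test, p = 0.0286, higher in ascorbyl-palmitate; p = 0.0714 without ascorbyl-palmitate replicate 2 or 4). 3 libraries stood apart: ascorbyl-palmitate replicate 4, control replicate 2 and control replicate 3 had 8.93%, 12.5% and 5.80% of their counts in 13 gene models with satellite-like sequence, against 0.0555% to 1.81% in the other 7 libraries. Kidney identity was clear in all 10 libraries. The proximal tubule phosphate transporter gene Slc34a1 was at 4036 to 5975 CPM (counts scaled to the size of the library, here with TMM factors) in ascorbyl-palmitate kidneys and at 5198 to 6971 CPM in control kidneys. Alb, the liver's albumin gene, was at 2.46 to 6.46 CPM in ascorbyl-palmitate kidneys and at 0 to 11.8 CPM in control kidneys.

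Of 11719 genes tested, 5 passed an adjusted p of 0.05 between ascorbyl-palmitate and control kidneys, all lower in ascorbyl-palmitate (0.0427% of the genes tested; edgeR's quasi-likelihood test with Benjamini-Hochberg adjustment), and 0 were higher. They were Zfp697, which encodes a zinc finger protein, Wsb1, the substrate receptor of a ubiquitin ligase, Cpsf6, a subunit of the complex that chooses where messenger RNA is cut and polyadenylated, Khdc4, an RNA-binding protein tied to splicing, and ENSMUSG00000089788, to which no symbol was matched. At a nominal p under 0.05, before adjustment, there were 620 genes higher (5.29%) and 847 lower (7.23%). Against the other 5 compounds, 0 genes passed, with 208 higher (1.77%) and 135 lower (1.15%) at a nominal p under 0.05. DESeq2 called 147 genes against control and limma with sample weights called 307, so the length of the list depended on the tool, while each of the 5 genes was among the calls of both. In edgeR, leaving out any 1 of ascorbyl-palmitate replicates 1, 3 and 4 or of control replicates 1, 3, 4 and 5 left 0 genes past the threshold, and 0 also passed once the 11 kidney libraries with 5% or more satellite-like counts were dropped, 3 of them among these 10 and 8 from other compounds. Without control replicate 2 there were 130 genes, without control replicate 6 there were 86 and without ascorbyl-palmitate replicate 2 there were 30.

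**Figure D1:**
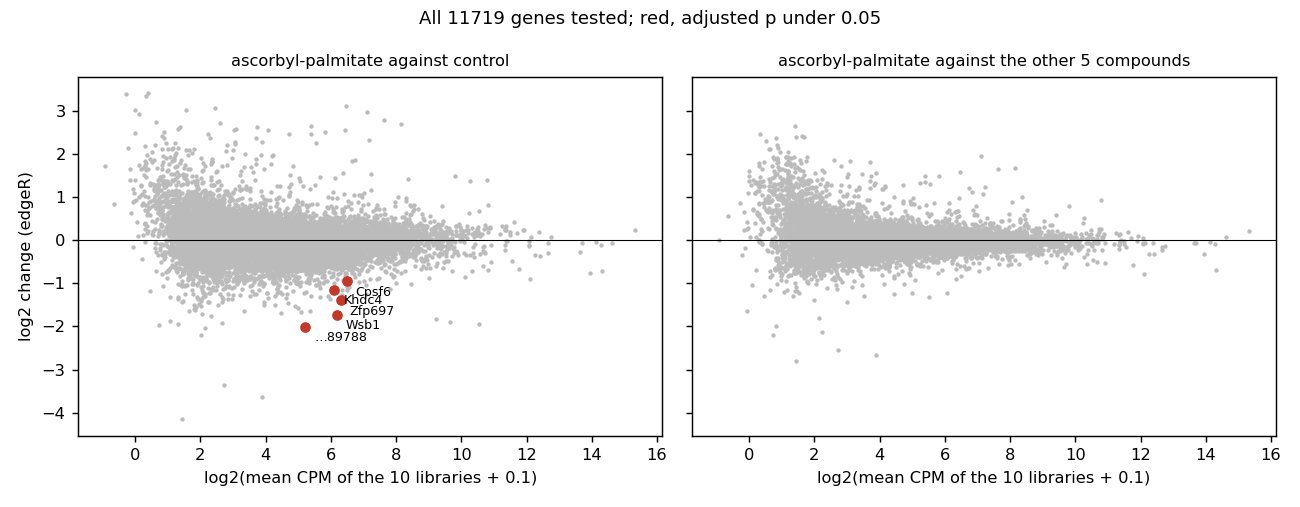
Log2 change by edgeR (vertical axis) against log2 of the mean CPM of the 10 libraries plus 0.1 (horizontal axis), each point 1 of 11719 genes tested, for ascorbyl-palmitate against control (left) and against the other 5 compounds (right). The 5 genes past an adjusted p of 0.05, in red, all lie below 0 on the left, and there are 0 on the right.

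The bases upstream of the 4 called genes with a symbol are shown because these genes moved together across the same libraries. Each line gives the 250 bases before the annotated start, 5′ to 3′ on the gene's own strand (RefSeq, GRCm38.p6), at chr3:98382231-98382480 on the plus strand for Zfp697, chr11:79254696-79254945 on the minus strand for Wsb1, chr10:117376974-117377223 on the minus strand for Cpsf6 and chr3:88685537-88685786 on the plus strand for Khdc4. Capitals mark matches, on either strand, to the promoter motifs described after the sequences, whose matches do not overlap here. In GENCODE the span of Cpsf6 (117344673 to 117380015) begins upstream of the RefSeq start used here. The GENCODE span of Zfp697 begins at 98382461, so the last bases of its window lie inside that span.
Zfp697: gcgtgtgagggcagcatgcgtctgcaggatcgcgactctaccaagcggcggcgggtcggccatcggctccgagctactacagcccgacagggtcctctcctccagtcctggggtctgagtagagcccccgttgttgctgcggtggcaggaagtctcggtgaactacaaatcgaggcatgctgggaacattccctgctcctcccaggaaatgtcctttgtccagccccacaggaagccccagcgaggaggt
Wsb1: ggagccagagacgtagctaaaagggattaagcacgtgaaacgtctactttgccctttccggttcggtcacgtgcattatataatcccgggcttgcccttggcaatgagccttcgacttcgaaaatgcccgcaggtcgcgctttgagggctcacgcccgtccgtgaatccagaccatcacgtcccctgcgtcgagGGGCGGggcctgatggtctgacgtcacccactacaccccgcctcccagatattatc
Cpsf6: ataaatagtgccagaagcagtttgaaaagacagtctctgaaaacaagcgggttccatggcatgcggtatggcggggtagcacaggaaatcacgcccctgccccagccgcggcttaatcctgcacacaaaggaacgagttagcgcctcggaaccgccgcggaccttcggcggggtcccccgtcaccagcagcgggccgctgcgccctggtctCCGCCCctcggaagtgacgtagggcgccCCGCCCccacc
Khdc4: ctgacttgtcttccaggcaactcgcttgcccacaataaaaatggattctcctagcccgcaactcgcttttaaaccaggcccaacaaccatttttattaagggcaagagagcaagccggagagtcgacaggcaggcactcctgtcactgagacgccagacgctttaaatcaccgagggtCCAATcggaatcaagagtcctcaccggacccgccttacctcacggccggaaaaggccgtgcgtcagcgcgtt
The letters GGGCGG, a core of the GC box, occurred in 1 place before Wsb1 and in 2 places before Cpsf6, and 32.7% of the 32851 windows of this length in the table hold them. CCAAT occurred in 1 place before Khdc4, and 33.8% of windows hold it. The letters TATAAA, a core of the TATA box, were found before none of the 4 genes, and 12.4% of windows hold them. CCGGAAG, a core bound by ETS factors, was likewise found before none, and 6.91% of windows hold it. No motif searched was present before all 4 genes. The windows were 62.8%, 57.6%, 64.0% and 54.4% G or C for Zfp697, Wsb1, Cpsf6 and Khdc4, against a median of 52.4% over all windows.

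Zfp697 (ENSMUSG00000050064, chromosome 3, 98382461 to 98753812, GRCm38) was the gene with the smallest p. It had 27.6, 56.8, 36.4 and 37.0 CPM in ascorbyl-palmitate kidneys, against 87.9, 61.3, 138, 133, 132 and 75.6 CPM in control kidneys. Every ascorbyl-palmitate library lay below every control library, an arrangement that 166 of the genes tested showed (1.42%), and it held for this gene alone among the 5. The log2 change was −1.39 ± 0.26 (SE, adjusted p = 0.0405). The annotated span of Zfp697 contains 8 genes on the opposite strand, among them Hsd3b2 and Hsd3b3, and the strand setting of the counting is not given in the sources used here. The same limit holds for other genes with an annotated neighbour inside their span, on the opposite strand for Tardbp, Cpsf7, Aldh1a1, Slc12a1, Cryab, Slc23a1, Slc23a2, Slc2a1, Gsto1, Adm and Slc34a1, and on the same strand for Khdc4, Sfpq, Malat1, Neat1, Bola1, Prlr and Gclm.

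Wsb1 (chromosome 11, 79239372 to 79254671) had 18.4, 42.6, 27.8 and 31.4 CPM in ascorbyl-palmitate kidneys, against 68.1, 38.3, 148, 130, 171 and 50.0 CPM in control kidneys. Its log2 change was −1.73 ± 0.33 (SE, adjusted p = 0.0405). Control replicate 2 fell inside the ascorbyl-palmitate range and control replicate 6 just above it, while the other 4 controls were higher.

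Cpsf6 (chromosome 10) had 53.6, 54.9, 55.3 and 64.2 CPM in ascorbyl-palmitate kidneys, against 113, 58.3, 118, 141, 152 and 83.0 CPM in control kidneys, a log2 change of −0.95 ± 0.18 (SE, adjusted p = 0.0405). Khdc4 (chromosome 3, 88685803 to 88712924) had 28.5, 48.7, 45.0 and 35.7 CPM in ascorbyl-palmitate kidneys, against 81.3, 52.4, 114, 118, 117 and 47.7 CPM in control kidneys, a log2 change of −1.15 ± 0.22 (SE, adjusted p = 0.0405). In both, as for Wsb1, replicates 2 and 6 were the lowest controls. Control replicate 2 lay inside the ascorbyl-palmitate range for Cpsf6, and control replicate 6 did so for Khdc4. ENSMUSG00000089788 had 10.0, 14.5, 14.7 and 12.8 CPM in ascorbyl-palmitate kidneys, against 34.0, 13.0, 89.5, 72.9, 88.0 and 20.5 CPM in control kidneys, a log2 change of −2.01 ± 0.39 (SE, adjusted p = 0.0405).

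**Figure D2:**
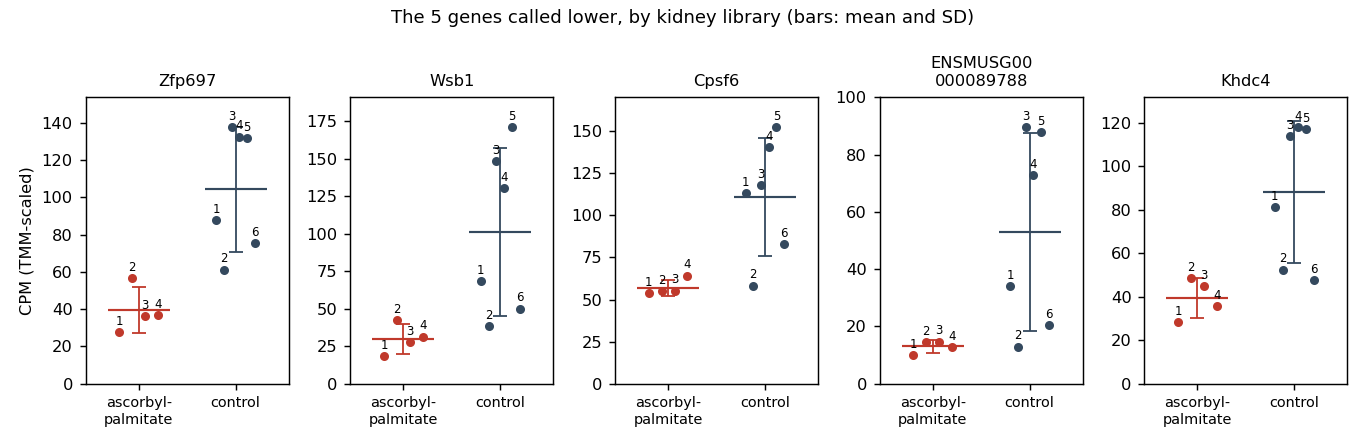
CPM (vertical axis, TMM-scaled) of the 5 genes called lower in the 4 ascorbyl-palmitate and 6 control kidney libraries, each point a library marked with its replicate number, with the group mean and SD as bars. Controls 2 and 6 sit close to the ascorbyl-palmitate libraries in each panel, and controls 3, 4 and 5 sit far above them.

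Set directly against the 20 kidneys on other compounds, the 5 genes had differences nearer to 0. The log2 difference from the mean of the other 5 compound groups was −0.27 for Zfp697 (95% interval −0.71 to 0.17), −0.33 for Wsb1 (−0.90 to 0.23), −0.07 for Cpsf6 (−0.38 to 0.25), −0.10 for ENSMUSG00000089788 (−0.77 to 0.56) and −0.05 for Khdc4 (−0.43 to 0.34). For each of the 5 genes the lower end of this interval lies above the log2 change against control, which has its own error. The 5 genes were picked for a small p against control, and both contrasts use the same ascorbyl-palmitate libraries. Values nearer to 0 are therefore not independent evidence, and the gap between the contrasts was not tested. All 20 libraries on other compounds were below control replicate 1 for each of the 5 genes, with Zfp697 at 27.8 to 79.3 CPM and Cpsf6 at 46.6 to 78.7 CPM. Against the same 6 controls, Khdc4 had log2 changes of −0.94 with AS-703026, −1.20 with AZD8055, −0.99 with enzastaurin, −1.15 with GDC-0941 and −1.25 with KU0063794, beside −1.15 with ascorbyl-palmitate. These values share their controls, so they are not independent of each other.

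**Figure D3:**
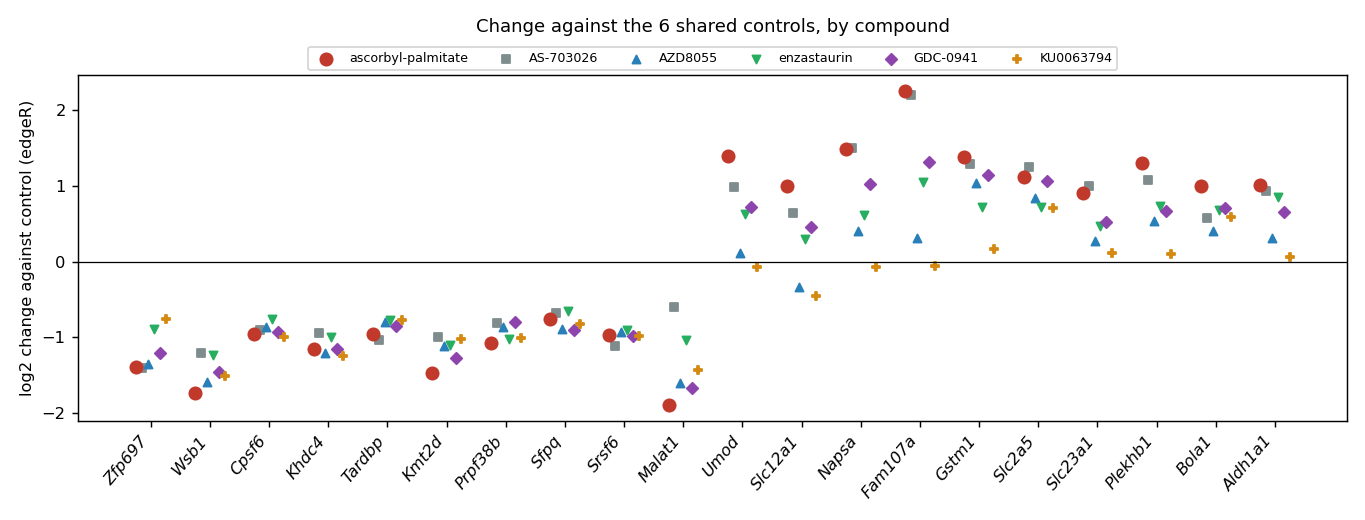
Log2 change against the 6 control kidneys (vertical axis, edgeR) for 20 genes (horizontal axis) with each of the 6 compounds, 1 symbol for each compound and ascorbyl-palmitate in large red circles. From Zfp697 to Malat1 the symbols of all 6 compounds lie below 0, and from Umod on ascorbyl-palmitate lies above 0 and KU0063794 lies between −0.45 and 0.70.

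Among the gene lists examined, the one with the largest share of genes below control in ascorbyl-palmitate kidneys at a nominal p under 0.05 was that of splicing factors. Over all genes tested, 5.29% were higher and 7.23% lower at that p, and every list count is to be read beside these shares. The lists were chosen with earlier results of these data known, so their counts describe and are not independent support. SR proteins carry stretches of serine and arginine and help the spliceosome choose exons, and Khdc4 was listed with them. Of 36 SR and SR-related genes tested, 1 passed the adjusted threshold, 28 were lower and 0 higher at a nominal p under 0.05, and 35 had a log2 change below 0. Their median log2 change was −0.65, against 0.00 over all genes tested, and −0.05 against the other 5 compounds. Srsf6, a classical SR protein, had 58.6, 96.8, 61.0 and 80.4 CPM in ascorbyl-palmitate kidneys, against 135, 75.4, 203, 182, 188 and 95.4 CPM in control kidneys (log2 change −0.97 ± 0.22 SE, adjusted p = 0.0679). Srsf11, another member, had 165, 179, 160 and 141 CPM in ascorbyl-palmitate kidneys, against 279, 156, 365, 436, 517 and 164 CPM in control kidneys (−0.98 ± 0.23, adjusted p = 0.0679). In both genes control replicates 2 and 6 were at the level of the ascorbyl-palmitate libraries. Prpf38b, a spliceosome component, Pnisr and Luc7l3, which encode SR-related proteins, and Srek1 had log2 changes of −1.07, −1.25, −0.91 and −0.98, each with an adjusted p of 0.0679.

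The summed level of the 36 SR genes was 2744, 3197, 2844 and 2770 CPM in ascorbyl-palmitate kidneys, against 4720, 2873, 5581, 5930, 6074 and 2984 CPM in control kidneys. The 20 libraries on other compounds had sums of 2560 to 3781 CPM, and all 20 were below control replicate 1. Among them 5 libraries had fewer counts than the control median of 1489031, and their SR sums were 2882 to 3513 CPM. Controls 2 and 6 were also the deepest controls. With the log2 total count as a covariate in the fit of the 30 kidney libraries, 0 genes passed and the median log2 change of the SR genes was −0.63.

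Among nuclear noncoding RNAs, Malat1 and Neat1 also had control replicates 2 and 6 as their lowest controls. Malat1, a long RNA that stays in the nucleus at splicing speckles, had 336, 445, 159 and 288 CPM in ascorbyl-palmitate kidneys, against 1450, 391, 1159, 1454, 2101 and 282 CPM in control kidneys (log2 change −1.89 ± 0.42 SE, adjusted p = 0.0679). Neat1, the scaffold of paraspeckles, had 147, 302, 254 and 241 CPM in ascorbyl-palmitate kidneys, against 523, 204, 1399, 1256, 1336 and 292 CPM in control kidneys (−1.82 ± 0.47, adjusted p = 0.0860). Of 20 nuclear noncoding RNAs and small nucleolar RNA hosts tested, 0 passed, 5 were lower and 0 higher at a nominal p under 0.05, and the median log2 change was −0.41, against 0.06 relative to the other 5 compounds. Snhg14, which overlaps Ube3a on the other strand, had a log2 change of −1.11. Among mitochondrial transcripts, the 12S ribosomal RNA mt-Rnr1 had 726, 440, 518 and 504 CPM in ascorbyl-palmitate kidneys, against 2660, 667, 1521, 2404, 4803 and 634 CPM in control kidneys (−1.95 ± 0.42, adjusted p = 0.0679), again with controls 2 and 6 low.

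Chromatin and transcription regulators, a list also chosen with earlier results of these data known, gave a similar count. Of 43 tested, 1 passed (Zfp697), 22 were lower and 0 higher at a nominal p under 0.05, and 42 had a log2 change below 0, with a median of −0.43, against −0.09 relative to the other 5 compounds. Kmt2d, a histone H3 methyltransferase of enhancers, had 8.79, 13.9, 13.5 and 13.1 CPM in ascorbyl-palmitate kidneys, against 43.9, 13.0, 45.6, 39.0, 48.0 and 18.6 CPM in control kidneys (−1.46 ± 0.31, adjusted p = 0.0679). In 7 of the 43 genes every ascorbyl-palmitate library lay below every control library, against 1.42% of all genes tested. Ogt, which attaches N-acetylglucosamine to nuclear proteins and whose transcript is subject to intron retention, had a log2 change of −1.27 (adjusted p = 0.0679).

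RNA-binding proteins outside the SR family were less uniform. Of 32 hnRNP and nuclear RNA-binding genes, 0 passed and 9 were lower at a nominal p under 0.05, against 7.23% of all genes tested. Their median log2 change was −0.26. Sfpq, a paraspeckle protein, had 59.9, 71.3, 57.3 and 57.3 CPM in ascorbyl-palmitate kidneys, against 134, 72.5, 91.2, 107, 109 and 111 CPM in control kidneys (−0.76 ± 0.17, adjusted p = 0.0679). Here control replicate 6 stood with the other controls, and the groups did not overlap. Tardbp, which encodes the RNA-binding protein TDP-43, had 66.6, 96.5, 83.1 and 86.8 CPM in ascorbyl-palmitate kidneys, against 139, 94.3, 180, 215, 247 and 96.5 CPM in control kidneys (−0.96 ± 0.20, adjusted p = 0.0679). Hnrnpa2b1 had a log2 change of −0.45 (adjusted p = 0.105). In the list of 22 genes for 3′ end processing, Cpsf6 passed and 5 genes were lower and 1 higher at a nominal p under 0.05. Cpsf7, its partner in cleavage factor Im, had 20.9, 29.0, 26.2 and 26.1 CPM in ascorbyl-palmitate kidneys, against 36.2, 31.2, 57.0, 62.6, 66.6 and 33.3 CPM in control kidneys, without overlap (−0.90 ± 0.20, adjusted p = 0.0679).

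The nuclear-encoded genes of oxidative phosphorylation and the cytosolic ribosomal protein genes had positive median log2 changes, and none passed the adjusted threshold. Of 71 nuclear-encoded genes of oxidative phosphorylation, 19 were higher and 0 lower at a nominal p under 0.05 and 68 had a log2 change above 0, with a median of 0.24, against 0.09 relative to the other 5 compounds. Ndufs8, a subunit of complex I, had 90.4, 101, 118 and 95.6 CPM in ascorbyl-palmitate kidneys, against 60.4, 87.2, 57.8, 61.1, 58.5 and 102 CPM in control kidneys (0.50 ± 0.15, adjusted p = 0.127), and controls 2 and 6 were the highest. Of 61 cytosolic ribosomal protein genes, 22 were higher and 1 lower at a nominal p under 0.05, 44 had a log2 change above 0 and 17 below, and the median was 0.29. The 11 mitochondrially encoded genes tested went the other way, with 0 past the threshold, 0 higher and 2 lower at a nominal p under 0.05, 10 below 0 and a median of −0.28. Rps4x had 62.0, 56.8, 53.2 and 45.5 CPM in ascorbyl-palmitate kidneys, against 28.6, 44.2, 28.5, 24.3, 23.7 and 35.7 CPM in control kidneys, without overlap (0.80 ± 0.20, adjusted p = 0.0727). Every ascorbyl-palmitate library above every control library was seen for 98 of all genes tested (0.836%) and for 5 of the 61 ribosomal protein genes, Rps15a and Rpl41 among them. Ribosomal protein genes have near-identical pseudogene copies, so their counts are uncertain where reads could be shared.

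**Figure D4:**
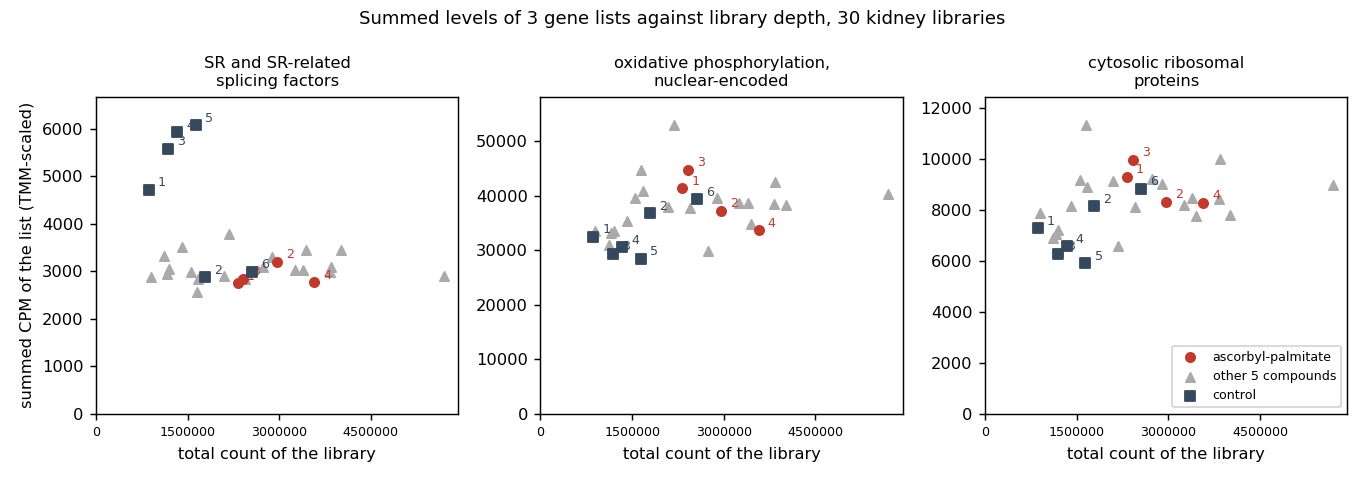
Summed CPM of 3 gene lists (vertical axes, TMM-scaled) against the library's total count (horizontal axes) for the 30 kidney libraries: ascorbyl-palmitate (red circles) and control (dark squares), both marked with replicate numbers, and the other 5 compounds (grey triangles). For SR and SR-related genes, controls 1, 3, 4 and 5 stand above all other kidney libraries at 4720 to 6074 CPM, and the ascorbyl-palmitate libraries sit at 2744 to 3197 CPM among the rest.

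Genes of the thick ascending limb, the segment that takes up salt through the cotransporter encoded by Slc12a1 and secretes uromodulin, had higher values in ascorbyl-palmitate kidneys, with a wide spread inside the group. Of 9 markers tested, 0 passed the adjusted threshold, 7 were higher and 0 lower at a nominal p under 0.05, all 9 had a log2 change above 0, and the median was 1.00, against 0.45 relative to the other 5 compounds. Umod, the uromodulin gene, had 4602, 1150, 3886 and 1548 CPM in ascorbyl-palmitate kidneys, against 1420, 954, 1142, 961, 910 and 985 CPM in control kidneys (1.40 ± 0.36, adjusted p = 0.0860). Slc12a1 had 561, 164, 555 and 249 CPM in ascorbyl-palmitate kidneys, against 279, 114, 207, 197, 230 and 120 CPM in control kidneys (1.00 ± 0.38, adjusted p = 0.253). Replicates 1 and 3 were far above all controls for both genes, and replicates 2 and 4 lay within or close to the control range. Cldn16, a tight junction protein for magnesium and calcium uptake in this segment, had 12.1, 6.78, 7.37 and 10.9 CPM in ascorbyl-palmitate kidneys, against 2.20, 1.77, 3.26, 0.737, 5.79 and 3.88 CPM in control kidneys, without overlap (1.58 ± 0.44, adjusted p = 0.101). Ppp1r1a had 174, 64.6, 164 and 59.7 CPM in ascorbyl-palmitate kidneys, against 53.0 to 80.1 CPM in control kidneys. In bulk tissue, more cells of a type and more RNA per cell cannot be told apart.

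Several of the genes with the smallest p among those with higher values followed the same split of the ascorbyl-palmitate group. Napsa, which encodes the aspartic protease napsin A, had 2710, 672, 1734 and 733 CPM in ascorbyl-palmitate kidneys, against 459, 581, 566, 529, 558 and 437 CPM in control kidneys, without overlap (1.49 ± 0.36, adjusted p = 0.0679). Fam107a had 183, 19.7, 123 and 31.7 CPM in ascorbyl-palmitate kidneys, against 14.7 to 26.5 CPM in control kidneys (2.26 ± 0.54, adjusted p = 0.0679). Gstm1, a glutathione transferase, had 3829, 730, 2172 and 1023 CPM in ascorbyl-palmitate kidneys, against 670 to 849 CPM in control kidneys (1.38 ± 0.34, adjusted p = 0.0679). Ppp1r1b, A4gnt and Gpx6, the last a glutathione peroxidase, had log2 changes of 2.45, 2.63 and 1.95, and in each replicates 1 and 3 held the highest values of the 10 libraries. Cryab, abundant in the inner medulla, was at 570, 55.2, 432 and 62.9 CPM in ascorbyl-palmitate kidneys, against 45.0 to 66.7 CPM in control kidneys. Of the 7 thin limb and inner medulla markers tested, 0 passed, 2 were higher and 0 lower at a nominal p under 0.05, and 6 had a log2 change above 0. Their summed level was 1469, 568, 1114 and 484 CPM in ascorbyl-palmitate kidneys, against 462 to 623 CPM in control kidneys. Principal cells of the collecting duct gave no common direction: of 9 markers 0 passed, 1 was higher and 0 lower at a nominal p under 0.05, 5 had a log2 change below 0 and the median was −0.24. The 1 gene was the water channel Aqp4, at 218, 18.7, 153 and 50.9 CPM in ascorbyl-palmitate kidneys, against 12.7 to 26.9 CPM in control kidneys. The summed level of the 9 markers was 640, 314, 585 and 348 CPM in ascorbyl-palmitate kidneys, against 316 to 409 CPM in control kidneys. The part that the regions sampled play in these values was not tested.

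Markers of the distal convoluted tubule had log2 changes below 0, and those of intercalated cells were mixed. Slc12a3, the thiazide-sensitive cotransporter of the distal convoluted tubule, had 26.4, 74.9, 45.0 and 67.9 CPM in ascorbyl-palmitate kidneys, against 116, 86.0, 125, 105, 149 and 102 CPM in control kidneys, without overlap (−1.08 ± 0.33, adjusted p = 0.155). Of 6 markers of the distal convoluted and connecting tubule, 0 passed, 0 were higher and 1 lower at a nominal p under 0.05, and all 6 had a log2 change below 0, with a median of −0.52, against −0.23 relative to the other 5 compounds. Of 9 intercalated cell markers, 0 passed, 1 was higher and 1 lower at a nominal p under 0.05, and 7 had a log2 change below 0, with a median of −0.60. The higher one was Aqp6, an aquaporin of these cells, at 38.9, 7.42, 30.3 and 5.33 CPM in ascorbyl-palmitate kidneys, against 2.95 to 12.4 CPM in control kidneys, again with replicates 1 and 3 highest. Among 19 proximal tubule markers, 0 passed, 1 was higher and 0 lower at a nominal p under 0.05, and the median was −0.11.

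**Figure D5:**
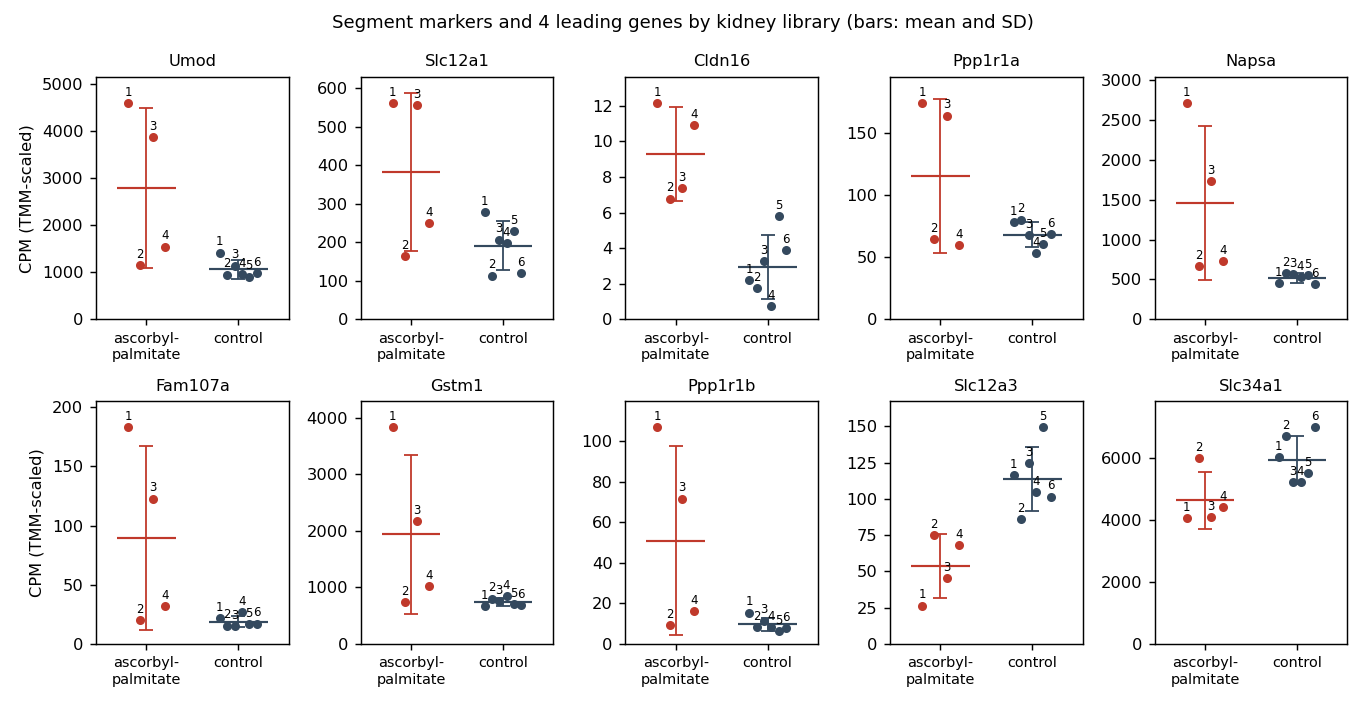
CPM (vertical axes, TMM-scaled) of 10 genes in the 4 ascorbyl-palmitate and 6 control kidney libraries, each point a library marked with its replicate number, with the group mean and SD as bars. Ascorbyl-palmitate replicates 1 and 3 are the highest of the 10 libraries for Umod, Slc12a1, Ppp1r1a, Napsa, Fam107a, Gstm1 and Ppp1r1b and the lowest for Slc12a3.

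For Plekhb1, Bola1 and Aldh1a1 every ascorbyl-palmitate library lay above every control library, not replicates 1 and 3 alone. Replicates 1 and 3 were still the highest for Bola1 and Aldh1a1, and replicate 1 stood far above the rest for Plekhb1. Plekhb1 had 71.6, 28.4, 34.0 and 35.2 CPM in ascorbyl-palmitate kidneys, against 25.3, 15.3, 17.9, 10.3, 20.8 and 14.3 CPM in control kidneys, without overlap (1.30 ± 0.29, adjusted p = 0.0679). Bola1, a mitochondrial protein of iron-sulphur cluster assembly, had 36.8, 24.9, 36.8 and 24.2 CPM in ascorbyl-palmitate kidneys, against 11.0, 21.8, 11.4, 10.3, 11.0 and 22.9 CPM in control kidneys, also without overlap (1.00 ± 0.23, adjusted p = 0.0679). Aldh1a1, which makes retinoic acid, had 123, 59.4, 98.7 and 63.7 CPM in ascorbyl-palmitate kidneys, against 34.9 to 46.9 CPM in control kidneys (1.01 ± 0.23, adjusted p = 0.0679). Relative to the other 5 compounds the log2 differences were 0.68, 0.41 and 0.44 for Plekhb1, Bola1 and Aldh1a1, each with an adjusted p of 1.00. For Bola1 all 20 libraries on other compounds were above control replicate 1. The Bola1 controls at 21.8 and 22.9 CPM, the same ones that were low for the splicing genes, stood above the other controls, at 10.3 to 11.4 CPM.

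The list of genes that make, move and recycle vitamin C also took in related genes, such as Slc2a5, Slc23a3 and Miox. It showed no called change. Of 18 tested, 0 passed. At a nominal p under 0.05, 4 were higher and 0 lower, against 5.29% and 7.23% of all genes tested. In this list 14 had a log2 change above 0, and the median was 0.17, against 0.02 relative to the other 5 compounds. Slc2a5, a member of the facilitative sugar transporter family that carries fructose, had 58.2, 37.8, 36.4 and 25.6 CPM in ascorbyl-palmitate kidneys, against 18.7, 24.2, 19.5, 15.5, 16.8 and 14.0 CPM in control kidneys, without overlap (1.13 ± 0.30, adjusted p = 0.0942). Relative to the other 5 compounds its log2 difference was 0.21 (95% interval −0.28 to 0.70). Slc23a1, the sodium-dependent vitamin C transporter of the proximal tubule, had 801, 244, 514 and 202 CPM in ascorbyl-palmitate kidneys, against 217, 237, 239, 256, 233 and 223 CPM in control kidneys (0.91 ± 0.29, adjusted p = 0.166). Replicates 1 and 3 were above all controls, and replicates 2 and 4 were among or below them. Slc23a3, a related orphan transporter, had 15.1, 1.94, 10.6 and 7.46 CPM in ascorbyl-palmitate kidneys, against 1.18 to 4.88 CPM in control kidneys (1.82 ± 0.57, adjusted p = 0.155).

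Slc23a2, the second sodium-dependent vitamin C transporter, had 7.96, 9.04, 5.73 and 17.3 CPM in ascorbyl-palmitate kidneys, against 8.84 to 22.0 CPM in control kidneys (−0.48 ± 0.32, adjusted p = 0.577). Slc2a1, which encodes the glucose transporter GLUT1, a carrier of oxidised vitamin C, had a log2 change of 0.46 (adjusted p = 0.386). For the enzymes that lead to vitamin C, Ugdh and Rgn had log2 changes of 0.17 and 0.54, with adjusted p of 0.784 and 0.658, and Akr1a1 was at 3791 to 5400 CPM in ascorbyl-palmitate kidneys and at 3530 to 5702 CPM in control kidneys. Miox, which acts in inositol breakdown, was at 2279 to 4153 CPM in ascorbyl-palmitate kidneys and at 1920 to 3454 CPM in control kidneys. Gulo was not tested for lack of counts, with 0 to 3 raw counts in each ascorbyl-palmitate library and 0 to 2 in each control library. Among recycling enzymes, Gsto1, an omega-class glutathione transferase that reduces dehydroascorbate, had a log2 change of 0.50 and Cyb5r3 one of 0.19 (adjusted p = 0.520 and 0.761), and Txnrd1 was at 56.9 to 69.2 CPM in ascorbyl-palmitate kidneys, against 52.7 to 71.8 CPM in control kidneys.

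Enzymes that use vitamin C as a cofactor, 39 in all, had 0 genes past the threshold and a median log2 change of −0.13. At a nominal p under 0.05, 2 were higher and 6 lower, against 5.29% and 7.23% of all genes tested. Tet2, a DNA demethylase, had 17.6, 12.3, 24.2 and 23.2 CPM in ascorbyl-palmitate kidneys, against 56.0, 20.0, 64.3, 28.7, 49.2 and 16.3 CPM in control kidneys (−0.99 ± 0.35, adjusted p = 0.211), with controls 2 and 6 inside the ascorbyl-palmitate range. Kdm5c, a histone demethylase, had a log2 change of −0.49 (adjusted p = 0.236). Egln3, a prolyl hydroxylase of hypoxia-inducible factors, had 25.5, 17.4, 51.2 and 17.3 CPM in ascorbyl-palmitate kidneys, against 9.77 to 21.4 CPM in control kidneys (0.94 ± 0.35, adjusted p = 0.242). Of 16 hypoxia-inducible factor targets, 0 passed and the median was 0.05. Adm, the vasodilator peptide adrenomedullin, lay below all controls at 14.2, 28.7, 17.6 and 22.6 CPM in ascorbyl-palmitate kidneys, against 31.7 to 44.6 CPM in control kidneys (−0.86 ± 0.24, adjusted p = 0.109). Collagen and basement membrane genes, 27 tested, had a median of 0.05 and 0 past the threshold, and Col4a4 of the glomerular basement membrane had a log2 change of −0.88 (adjusted p = 0.105).

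Antioxidant and fatty acid genes, the classes nearest to the other properties of the compound, had positive medians without a call. Of 26 NRF2 and glutathione genes, 0 passed. At a nominal p under 0.05, 3 were higher and 0 lower, against 5.29% and 7.23% of all genes tested. The median was 0.24, against −0.06 relative to the other 5 compounds. Gclm, the modifier subunit of the enzyme that limits glutathione synthesis, had 876, 494, 701 and 523 CPM in ascorbyl-palmitate kidneys, against 343 to 554 CPM in control kidneys (0.57 ± 0.19, adjusted p = 0.180). Of 21 antioxidant enzyme genes, 0 passed and 5 were higher at a nominal p under 0.05. Their median was 0.23, against −0.03 relative to the other 5 compounds. Their summed level was 24689 to 28819 CPM in ascorbyl-palmitate kidneys and 21277 to 29762 CPM in control kidneys. Controls 2 and 6 had the highest of these control sums. Glrx5, a glutaredoxin of mitochondrial iron-sulphur assembly, and Sod3, the extracellular superoxide dismutase, had log2 changes of 0.49 and 0.36 (adjusted p = 0.134 and 0.305). Of 39 genes of fatty acid uptake and oxidation, 0 passed, 5 were higher and 1 lower at a nominal p under 0.05. Their median was 0.20, against −0.19 relative to the other 5 compounds. That second value includes AZD8055 replicate 4, where the summed level of these genes was 43944 CPM. The median sum over the 20 libraries on other compounds was 8085 CPM, and ascorbyl-palmitate kidneys had 7143 to 9037 CPM. Vnn1, a pantetheinase and target of the receptor PPARα, had 54.0, 43.3, 52.8 and 43.1 CPM in ascorbyl-palmitate kidneys, against 26.4, 25.3, 18.7, 28.7, 26.6 and 29.9 CPM in control kidneys, without overlap (0.88 ± 0.28, adjusted p = 0.162). Cyp4a10 and Acadm, which act in fatty acid hydroxylation and oxidation, had log2 changes of 1.17 and 0.82, with replicates 1 and 3 highest.

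Stress and immune groups had values of both signs. Of 19 heat shock genes, 0 passed, 1 was higher and 7 lower at a nominal p under 0.05, and the median was −0.37. In 5 of the 19 every ascorbyl-palmitate library lay below every control library, against 1.42% of all genes tested. Hspa4l, an HSP110 family member, had 33.5, 31.6, 43.4 and 33.6 CPM in ascorbyl-palmitate kidneys, against 50.5, 49.5, 59.4, 48.6, 63.1 and 52.7 CPM in control kidneys (−0.61 ± 0.16, adjusted p = 0.0960). Controls 2 and 6 stood with the other controls here, unlike for the splicing genes. Among 21 genes of the endoplasmic reticulum stress response, 6 were lower at a nominal p under 0.05, against 7.23% of all genes tested. Sel1l, a component of the degradation machinery of the endoplasmic reticulum, had a log2 change of −0.70 (adjusted p = 0.0679). All 14 macrophage and leukocyte markers tested had a log2 change above 0, with a median of 0.56 and 0 past the threshold. H2-Aa, a class II histocompatibility gene, had 210, 266, 214 and 192 CPM in ascorbyl-palmitate kidneys, against 121, 269, 70.0, 101, 97.2 and 134 CPM in control kidneys (0.74 ± 0.30, adjusted p = 0.294). Of 24 interferon-induced genes, 0 passed and the median was 0.26. Among 16 kidney injury markers, 0 passed, and 1 was higher and 1 lower at a nominal p under 0.05. Their median was 0.38, against −0.21 relative to the other 5 compounds. The summed level of these markers was 1626 CPM in AZD8055 replicate 4 and 1027 CPM in AS-703026 replicate 4. Its median over the 20 libraries on other compounds was 508 CPM, and ascorbyl-palmitate kidneys had 482 to 534 CPM. The largest log2 change among the injury markers was that of Havcr1, a marker of tubular injury (2.01 ± 0.67, adjusted p = 0.180). It had 41.9, 11.0, 2.87 and 18.4 CPM in ascorbyl-palmitate kidneys, against 1.16 to 11.4 CPM in control kidneys.

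Prlr and the organic anion transporter genes belong to a list of 17 androgen-responsive genes of male mouse kidney, of which 0 passed, 1 was higher and 4 lower at a nominal p under 0.05. Prlr, the prolactin receptor, had 14.7, 5.81, 33.6 and 35.2 CPM in ascorbyl-palmitate kidneys, against 5.49, 5.89, 10.6, 4.42, 6.95 and 6.20 CPM in control kidneys (1.76 ± 0.47, adjusted p = 0.0910). Slc22a28 had 87.1, 167, 128 and 145 CPM in ascorbyl-palmitate kidneys, against 177, 197, 384, 353, 428 and 183 CPM in control kidneys, without overlap (−1.12 ± 0.30, adjusted p = 0.0955). Slc22a30 had 220, 225, 235 and 196 CPM in ascorbyl-palmitate kidneys, against 272, 207, 645, 609, 711 and 217 CPM in control kidneys (−1.02 ± 0.30, adjusted p = 0.127). For the last gene the high values were those of control replicates 3, 4 and 5, while control replicates 2 and 6 were at the ascorbyl-palmitate level.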

How the data were processed

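Whole-gene counts from 42 CEL-seq libraries were used as deposited by the authors, in a table of 43629 Ensembl genes, and 0 columns were left unmatched. Per the submitters' processing notes, featureCounts 1.5, STAR 2.5.2b, Trimmomatic 0.32 and bcl2fastq 1.8.4 were used with mm10; annotation release, strand setting and collapsing of molecular identifiers: not given in the sources used here. Symbols and coordinates came from GENCODE M21 (42548 genes matched). The 30 kidney libraries, in 7 groups, were fitted together with edgeR 4.0.16 (TMM, filterByExpr, quasi-likelihood; R 4.3.3), which was tested on simulated data, and contrasts were adjusted by Benjamini-Hochberg over 11719 genes. CPM values are TMM-scaled, and intervals are 95% and cover the fit's error. Single values per library were compared by exact permutation over 210 arrangements (scipy 1.17.1). Every gene past 0.05 was named, with the first 12 by p each way, the vitamin C list, the first 3 by p of each other list, 2 defining markers of each cell type and the first 10 by p without control 2 or 6; some of these are given in the text. The members and lists were chosen with earlier results of these data known. Alternatives were DESeq2 1.42.0, limma 3.58.1, other scaling, filters, covariates and left-out libraries. No 2 libraries agreed within counting noise (the lowest chi-square per gene was 3.67). Total counts per library of 863605 to 3569053 limit low genes most.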

Additional observations from a re-analysis of the deposited data

Results flagged for a closer look

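Of 214 group values examined, 14 had a library far from the rest of its group by Dixon's criterion, which chance alone gives in about 1 of 20 groups. Ascorbyl-palmitate replicate 4 was such a library for the number of genes detected (26561, against 15358 to 15633 in the other ascorbyl-palmitate libraries) and for the share of satellite-like counts (8.93%). It was also the highest of its group for Cpsf6, at 64.2 CPM. Ascorbyl-palmitate replicate 1 was apart for Kmt2d at 8.79 CPM, the lowest of its group, and for Plekhb1 at 71.6 CPM, the highest. The same library was apart for the adipocyte genes Ucp1 at 28.1 CPM, Adipoq at 13.8 CPM and Fabp4 at 257 CPM, and for the haemoglobin gene Hbb-bs at 4823 CPM. The summed level of 7 adipocyte markers was 1993, 1917, 1217 and 1158 CPM in ascorbyl-palmitate kidneys, against 1386 to 2394 CPM in control kidneys. Ascorbyl-palmitate replicate 3 was apart for Hspa4l at 43.4 CPM. Control replicate 2 was apart for the leukocyte genes H2-Aa at 269 CPM and Lyz2 at 63.6 CPM and for Hbb-bs at 4006 CPM, and control replicate 4 for Nqo1 at 34.6 CPM.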

How the results depend on the processing

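The count of 5 genes past the threshold against control moved with nearly every choice. It was 147 with DESeq2, 307 with limma voom and sample weights, 155 with no filter on low counts, and 15 with the replicate block. It was 0 after 1 random thinning of all libraries to the smallest total, 0 in a fit of the 10 libraries alone, 0 with the share of satellite-like counts as covariate, 0 without the 11 kidney libraries at or above 5% satellite-like counts and 0 with the log2 total count as a covariate. It stayed at 5 with RLE size factors and was 7 without AZD8055 replicate 4. Leaving out 1 library at a time gave 0 to 130 genes: 130 without control replicate 2, 86 without control replicate 6, 30 without ascorbyl-palmitate replicate 2, and 0 without any other of the 10 libraries. The cause of these moves was not tested. All 5 genes kept a log2 change below 0 in all 21 alternatives. Same-numbered libraries of the 2 groups did not deviate together (r of 0.05, −0.17, −0.12 and −0.13), so a source shared by number was not shown. Other pairs had r of −0.48 to 0.345. Ascorbyl-palmitate replicate 4 had r of 0.345 and 0.273 with controls 2 and 3, the libraries also rich in satellite-like counts, and −0.48 with control 6. Ascorbyl-palmitate replicates 1, 2 and 3 had r of 0.197, 0.272 and 0.267 with control 6. The source of these correlations was not tested. Against the other 5 compounds, the count of 0 became 31 with no filter on low counts and 1 without the libraries at or above 5% satellite-like counts. Among 88 genes whose log2 change is given, 0 turned direction in any alternative. Many of them, the 5 called genes included, were named for a small p in these libraries, which the alternatives reuse. A kept direction is therefore not independent support. The difference in genes detected, ascorbyl-palmitate minus control, was 1789 with all libraries and −974 (without ascorbyl-palmitate replicate 4) to 2760 with 1 left out. After thinning it was 254 and −1540 (without that library) to 889, with −124 without control replicate 6. The difference in satellite-like share was −1.32 percentage points with all libraries and −3.52 to 0.439 (without control replicate 2) with 1 left out. Thinning and the total-count covariate were chosen after seeing the data.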
